A study of Mus musculus with 56 samples.

Results

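The genes described here are 6 insulin-like growth factor (IGF) binding proteins, Igfbp2, Igfbp3, Igfbp4, Igfbp5, Igfbp6 and Igfbp7, and the 2 IGF receptors Igf1r and Igf2r, which are 8 of the 20314 genes in the expression table. They were chosen by name, with the level of Igfbp5 in view, which was low in β-catenin fl/fl cells and very high in D164A/- cells. The difference between these lines therefore chose the list, and it is given below as levels with no test. RNA was sequenced from 56 libraries of cell lines grown from mammary tumors of MMTV-PyMT mice (FVB/N), in which the mouse mammary tumor virus promoter drives the polyoma middle T oncogene. The 7 lines carried a β-catenin allele named fl/fl, D164A/fl, D164A/-, ΔC/fl, ΔC/-, dm/fl or dm/-, and each was cultured in 4 conditions with 2 replicates. These were Wnt3a at 100 ng/ml for 3 days, TGFβ at 2 ng/ml for 4 days, and untreated cells at 3 days and at 4 days. The D164A point mutation abolishes the binding of β-catenin to its cofactors Bcl9 and Bcl9L, fl is an allele that Cre can remove, and the minus sign marks its loss. For the D164A cells the floxed allele was removed by an adenovirus carrying Cre and GFP, followed by sorting of the GFP-positive cells. What ΔC and dm change is not spelled out in the labels. The study's methods speak of biological duplicates, but neither they nor the labels say whether these were separate lines or cultures, so the p-values measure only the spread between these samples, and a genotype and a cell line cannot be told apart.

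IGF binding proteins are secreted proteins that hold IGF1 and IGF2 in the extracellular space, and they can inhibit or prolong the action of these ligands. Igf1r is the signaling tyrosine kinase receptor, whereas Igf2r, also the mannose-6-phosphate receptor, takes IGF2 into the cell for degradation. Igfbp7 binds IGFs weakly and is often described as a matrix protein. In the mammary gland, Igfbp5 is known for its rise during involution.

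Levels are given as CPM, the reads of a gene scaled to an effective library size so that libraries of different depth can be compared. The libraries held 22396315 to 33681869 reads assigned to genes. At this depth 3 reads, taken as the lowest detectable level, correspond to 0.0917 to 0.146 CPM, which covers counting error only. By its 1000 most variable genes, each of the 56 libraries was closest to another library of its own line. The untreated 3-day dm/fl library of replicate 1 stood somewhat apart, with a best correlation of 0.86 against at least 0.91 for the others. The summed level of 10 luminal markers was 1164 to 8351 CPM in all libraries, and that of 8 basal markers 8.78 to 3936 CPM. Among the luminal markers, Krt19 had a median of 0 CPM and Prlr a median of 0.14 CPM. The defining immune markers Ptprc, Adgre1 and Cd3e, the fibroblast markers Lum, Thy1 and Fap and the endothelial markers Kdr and Tek stayed under 1 CPM in every library. Other genes of these lists did not, with maxima of 529.7 CPM for Csf1r, 79.4 CPM for Cd68, 494 CPM for Pdgfrb, 302.3 CPM for Pdgfra, 183.6 CPM for Col3a1 and 35.0 CPM for Cdh5. The Wnt target Axin2 passed the test as higher with Wnt3a in 6 lines but not in dm/-, where it was at most 0.0791 CPM, and the TGFβ target Smad7 passed as higher with TGFβ in 6 lines but not in ΔC/fl (log2 fold change 0.67, limma adjusted p = 0.243). β-catenin itself (Ctnnb1) lay between 531.5 and 3188 CPM. Its reads cover whole transcripts and do not check the alleles.

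Igfbp2 and Igfbp5 are neighbors on chromosome 1 of the mouse genome (mm10, GRCm38), at 72824480-72852474 and 72858065-72874865, and are transcribed toward each other. The promoters of these neighbors are shown with those of Igfbp7, which rose with TGFβ in every line, and Igfbp4, which was lower in every line that had lost the floxed allele. Each sequence runs from 250 bases before to 50 bases after the RefSeq start site (GRCm38.p6), on the strand of the gene. All 8 genes had a promoter in the RefSeq table. Capitals mark letters of 5 searched motifs on either strand, namely CTTTGA (the core read by TCF and LEF factors), CAGAC (SMAD), TGANTCA (AP-1), the TATA box TATAAA, and the sequence GGGCGG, which is a GC box.
Igfbp5, chr1:72874816-72875115, minus strand: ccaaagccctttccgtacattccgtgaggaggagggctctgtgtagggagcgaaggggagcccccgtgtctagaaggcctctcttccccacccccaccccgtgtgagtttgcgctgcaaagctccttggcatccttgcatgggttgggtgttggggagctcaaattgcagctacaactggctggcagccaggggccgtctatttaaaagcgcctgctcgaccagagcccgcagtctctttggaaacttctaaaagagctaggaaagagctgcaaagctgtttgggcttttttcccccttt
Igfbp2, chr1:72824230-72824529, plus strand: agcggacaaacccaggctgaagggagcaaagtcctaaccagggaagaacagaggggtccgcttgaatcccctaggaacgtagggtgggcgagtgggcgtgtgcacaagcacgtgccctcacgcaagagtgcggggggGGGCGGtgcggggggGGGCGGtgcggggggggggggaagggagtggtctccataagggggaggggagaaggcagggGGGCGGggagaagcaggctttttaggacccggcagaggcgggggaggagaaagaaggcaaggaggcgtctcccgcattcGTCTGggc
Igfbp7, chr5:77407996-77408295, minus strand: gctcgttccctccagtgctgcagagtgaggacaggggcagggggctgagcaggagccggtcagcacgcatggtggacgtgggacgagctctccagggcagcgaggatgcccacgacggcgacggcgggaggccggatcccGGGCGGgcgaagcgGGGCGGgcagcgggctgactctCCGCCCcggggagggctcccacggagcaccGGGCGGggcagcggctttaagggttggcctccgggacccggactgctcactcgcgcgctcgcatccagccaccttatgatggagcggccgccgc
Igfbp4, chr11:99040994-99041293, plus strand: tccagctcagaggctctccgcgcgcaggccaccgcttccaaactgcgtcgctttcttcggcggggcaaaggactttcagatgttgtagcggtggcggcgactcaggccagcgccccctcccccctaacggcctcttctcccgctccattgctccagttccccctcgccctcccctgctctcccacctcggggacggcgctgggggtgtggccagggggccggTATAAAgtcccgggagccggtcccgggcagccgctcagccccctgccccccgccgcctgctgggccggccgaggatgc
The Igfbp5 window holds none of the 5 motifs. The Igfbp2 window shown holds 3 GC boxes and 1 SMAD match in the transcribed part, while the window of another Igfbp2 start site (chr1:72825137-72825436), not printed, holds 2 SMAD matches and 1 AP-1 match. The Igfbp7 window holds 4 GC boxes, and the Igfbp4 window holds a TATA box that begins 28 bases before the start site. Among 32851 promoters of this length, CTTTGA was present in 16%, CAGAC in 49.6%, TGANTCA in 7.81%, TATAAA in 13.6% and GGGCGG in 35.7%. Of the members only Igf1r held CTTTGA. A match in these windows is a description and not a binding site.

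Igfbp5 had its highest levels in the D164A lines. In the untreated D164A/- cells it was measured at 7725 and 5071 CPM at 3 days and at 14305 and 13602 CPM at 4 days. With Wnt3a the D164A/- libraries held 7579 and 2260 CPM, and with TGFβ 25784 and 11284 CPM. It was the most abundant of all genes in 6 of the 8 D164A/- libraries and took up to 2.61% of the assigned reads. In fl/fl cells the untreated libraries held 1.83 and 5.25 CPM at 3 days but 109.4 and 13.6 CPM at 4 days, so that Igfbp5 was not absent from this line. In the ΔC and dm lines no library exceeded 0.76 CPM.

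D164A/fl cells differed between the experiments. Without cytokine they held 4233 and 5477 CPM of Igfbp5 at 3 days and 122.4 and 331.8 CPM at 4 days, and these untreated libraries did not overlap. The treated libraries lay between them, at 2301 and 1163 CPM with Wnt3a and 2283 and 3562 CPM with TGFβ. The summed level of 8 basal markers also differed, with 1034 to 3936 CPM in the Wnt3a experiment and 264 to 671 CPM in the TGFβ experiment of D164A/fl cells. Its part in the result was not tested, and in bulk RNA fewer cells of a type and less RNA per cell cannot be told apart. Ordered by mean, the highest conditions were D164A/- with TGFβ at 18534 ± 10253 CPM (SD, n = 2), D164A/- untreated at 4 days at 13953 ± 497, and D164A/- untreated at 3 days at 6398 ± 1876. They were followed by D164A/- with Wnt3a at 4920 ± 3762 CPM and D164A/fl untreated at 3 days at 4855 ± 879 CPM (both SD, n = 2). The replicates of the first and second of these overlapped, as did those of the third, the fourth and the fifth. Next in order were D164A/fl with TGFβ (2922 CPM) and with Wnt3a (1732 CPM), which overlapped, and D164A/fl untreated at 4 days (227.1 CPM). D164A/- with Wnt3a, at 7579 and 2260 CPM, also overlapped with both of these treated D164A/fl conditions. The fl/fl conditions followed, at 61.5 CPM untreated at 4 days, 8.12 CPM with TGFβ, 3.54 CPM untreated at 3 days and 0.174 CPM with Wnt3a, with no overlap between neighbors in this order.

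Igfbp2, a binding protein with a preference for IGF2, was likewise highest in the D164A lines. Untreated D164A/- cells held 44.7 and 27.7 CPM at 3 days and 67.4 and 79.9 CPM at 4 days, and D164A/fl cells held 8.5 and 36.0 CPM at 3 days but 0.424 and 1.38 CPM at 4 days. In the other 5 lines 37 of the 40 libraries were under 3 reads and the highest library, dm/fl with Wnt3a, reached 0.57 CPM. The fl/fl library with 109.4 CPM of Igfbp5 held no Igfbp2 read. Over the 28 condition means of log2(CPM + 1), Pearson's r between Igfbp2 and Igfbp5 was 0.88, a description in which conditions of a line share that line. The levels per library are plotted by line and condition.

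**Figure D1:**
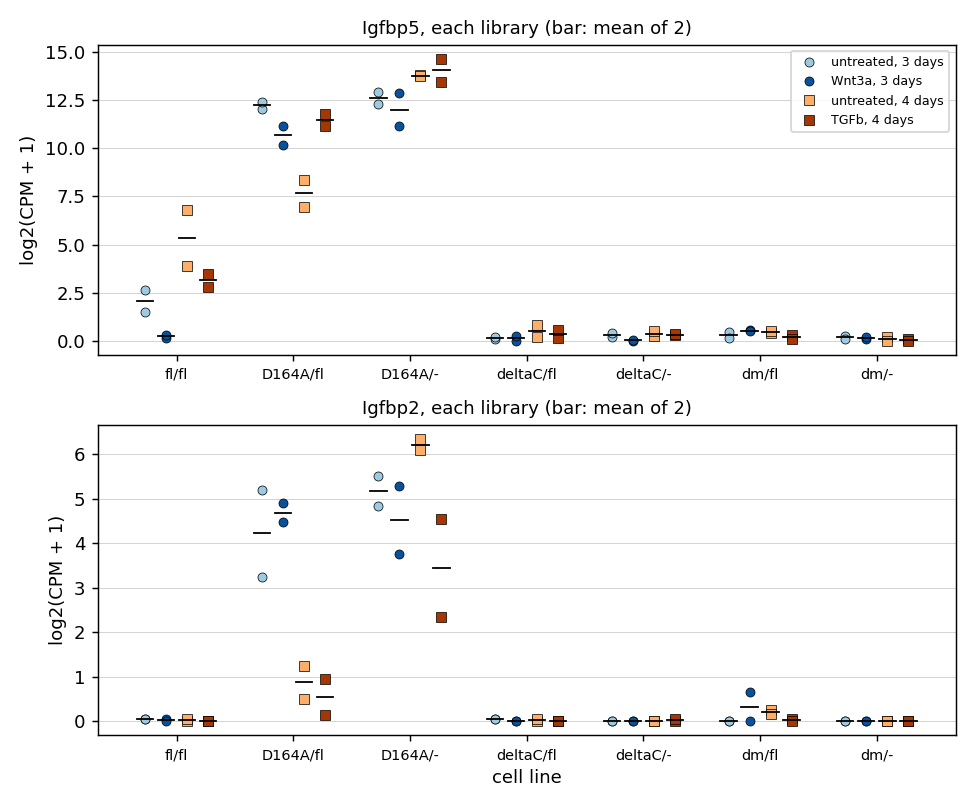
Igfbp5 and Igfbp2 in each of the 56 libraries as log2(CPM + 1), by cell line (horizontal axis) and condition (color), with a bar at the mean of 2 replicates. Igfbp5 reached 25784 CPM in D164A/- cells and stayed at or below 0.76 CPM in the ΔC and dm lines, and D164A/fl cells were lower at 4 days untreated than in their other conditions for Igfbp5.

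The 5 genes most like Igfbp5 over the 28 conditions were Sntb1 (r = 0.99), Col11a1, 0610040J01Rik, BC006965 and Stk26 (r = 0.98 each). All 5 were at 0 in at least 1 library, and Col11a1, a fibrillar collagen chain, reached 1393 CPM. Igfbp2 was most like Atp6v1b1 and Them5 (r = 0.98 each). The most similar genes of the remaining members were less close. They were Col17a1 and Bpifc for Igfbp3 (r = 0.85 and 0.84), Ccnd2 and Thbs2 for Igfbp4 (0.86 each), Sorbs3 and Sec1 for Igfbp6 (0.85 each), Spsb1 and Smoc1 for Igfbp7 (0.84 each), Meis2 and Gsn for Igf1r (0.88 and 0.87), and Bbs1 and Flt4 for Igf2r (0.86 and 0.85). These likenesses were not tested.

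The binding protein that led differed between lines. Divided by exon length, Igfbp5 made up a median of 95.5% of the summed level of the 6 binding proteins in D164A/- and 64.7% in D164A/fl. In D164A/fl the share ranged from 25.8% to 82.9%. In its untreated 4-day cells the mean was 45.3 CPM per kb for Igfbp3 and 37.8 CPM per kb for Igfbp5. Over treated and untreated libraries together, Igfbp7 had the highest median share in the other lines, at 88.6% in fl/fl, 71% in ΔC/- and 90.3% in dm/- (each over 8 libraries). In ΔC/fl it made up 50.7% with Igfbp4 at 43.4%, and in dm/fl 46.8% with Igfbp3 at 44.8%, and in both lines the ranges of the leading pair overlapped. In untreated ΔC/fl cells alone the median was 43.3 CPM per kb for Igfbp4 and 40.6 CPM per kb for Igfbp7. Without division by length, Igfbp4 made up a median of 69.5% in ΔC/fl and Igfbp3 57.7% in dm/fl. The median level of Igfbp5 in D164A/- was 1583 CPM per kb, and that of Igfbp7 ranged from 11.7 CPM per kb in ΔC/- to 97.4 CPM per kb in D164A/fl. On this scale the receptor Igf2r had a higher median (41.9 to 150.5 CPM per kb over the lines) than Igf1r (6.47 to 14.1 CPM per kb) in each line. Igfbp6, which prefers IGF2, was at or above 1 CPM in 3 of the 56 libraries and never exceeded 3.86 CPM.

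The response to TGFβ was tested in each line with limma on log2(CPM + 1), and a gene was called where its adjusted p did not exceed 0.05 and its log2 fold change was 1 or more in size. Across the 7 lines, 12 of the 56 tests of members were called. They include Igfbp5 in fl/fl, a line whose Igfbp5 level chose the list. Among all 13754 genes tested, the share called was 6.25% in fl/fl, 3.38% in D164A/fl, 4.06% in D164A/-, 7.74% in ΔC/fl, 6.55% in ΔC/-, 10.3% in dm/fl and 6.12% in dm/-. Igfbp7 accounted for 7 of the 12 calls, since it rose in every line, by 3.65 to 17.4 fold. Genes called as higher made up 3.31% in fl/fl, 2.5% in D164A/fl, 2.7% in D164A/-, 3.24% in ΔC/fl, 2.86% in ΔC/-, 3.45% in dm/fl and 3.68% in dm/-. A call as higher in each of the 7 lines was shared by 19 genes, or 0.138% of those tested. Igfbp7 is also on a gene list that the study drew from these samples, so its direction is not independent evidence.

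In fl/fl cells Igfbp7 went from 85.8 and 71.0 CPM to 544.4 and 461.6 CPM with TGFβ, the highest level of any line (log2 fold change 2.67 ± 0.44 SE, limma adjusted p = 4.88e-05). In D164A/fl it went from 17.5 and 24.0 CPM to 237 and 252.2 CPM (3.51 ± 0.44 SE, limma adjusted p = 2.25e-06). In D164A/- the untreated 14.6 and 24.5 CPM became 167.3 and 224.5 CPM (3.29 ± 0.44 SE, limma adjusted p = 2.39e-06). The treated and untreated libraries did not overlap in any line.

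ΔC/fl cells held 60.6 and 37.5 CPM of Igfbp7 untreated and 201.7 and 155 CPM with TGFβ, the smallest log2 fold change of the 7 lines (1.87, limma adjusted p = 0.00358). Without the treated replicate 1 this value was 1.68 (adjusted p = 0.0738) and without the untreated replicate 2 it was 1.53 (adjusted p = 0.0963). ΔC/- cells rose from 16.0 and 13.2 to 72.7 and 101.8 CPM (log2 fold change 2.49). dm/fl cells rose from 61.6 and 43.8 to 217.3 and 207.7 CPM (2.01). The largest fold change was that of dm/- cells, from 13.1 and 12.9 to 151.7 and 390.1 CPM (4.12, limma adjusted p = 3.26e-08). With only the samples compared, the Igfbp7 calls of D164A/-, ΔC/fl and dm/- were lost (limma adjusted p = 0.0586, 0.0845 and 0.0637). That fit called 0 of 13754 genes in D164A/-, 0 in ΔC/fl and 146 in dm/-, so in D164A/- and ΔC/fl the loss is not particular to Igfbp7. Igfbp7 was not called with Wnt3a in any line.

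**Figure D2:**
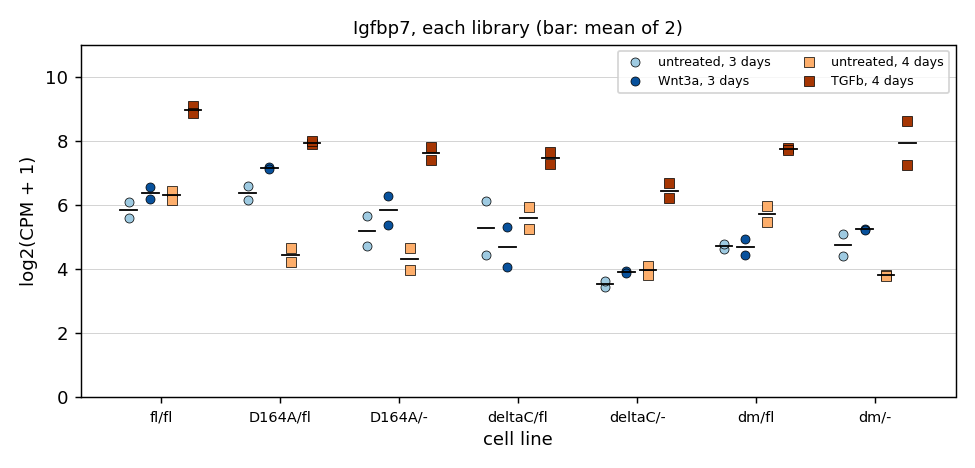
Igfbp7 in each library as log2(CPM + 1), by cell line (horizontal axis) and condition (color), with a bar at the mean of 2 replicates. In each line both TGFβ libraries lie above both untreated 4-day libraries, and fl/fl cells with TGFβ reached 544.4 CPM.

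Against the untreated 4-day cells, Igfbp5 moved with TGFβ in opposite directions in D164A/fl and fl/fl cells. Both directions depend on that control. In the Wnt3a experiment the untreated 3-day D164A/fl cells held 4233 and 5477 CPM, above both TGFβ libraries. Those of fl/fl held 1.83 and 5.25 CPM, below both TGFβ libraries of that line. In D164A/fl Igfbp5 rose from 122.4 and 331.8 CPM to 2283 and 3562 CPM (log2 fold change 3.82 ± 0.57 SE, limma adjusted p = 3.71e-05). The replicates did not overlap. In fl/fl it fell from 109.4 and 13.6 CPM to 10.2 and 6.03 CPM (log2 fold change -2.18 ± 0.57 SE, limma adjusted p = 0.0119). The fl/fl call rests on the untreated library with 109.4 CPM, without which the log2 fold change was -0.72 (adjusted p = 0.899). Without the other untreated library it was -3.64 (adjusted p = 2.54e-05), and without the treated replicate 2 it was -1.84 (adjusted p = 0.196). It was also not called with a pseudocount of 0.1 (-2.28, adjusted p = 0.065) or with only the samples compared (adjusted p = 0.431). In D164A/- the log2 fold change was 0.29 (adjusted p = 1). The response of D164A/fl exceeded that of fl/fl by 5.99 ± 0.81 (SE) on the log2 scale (limma adjusted p for the difference = 8.76e-06), in a comparison that called 3.81% of all genes. Fitted with only the samples compared, neither this difference (adjusted p = 0.0583) nor the rise in D164A/fl (adjusted p = 0.0556) was called. The Igfbp5 level in fl/fl and D164A/- cells chose the list, so tests of Igfbp5 that use these lines are not independent of that choice.

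The response of Igfbp5 in D164A/- was lower than that in D164A/fl, where the starting level was lower, with a difference of -3.53 ± 0.81 SE (limma adjusted p = 0.0146, 1.35% of all genes called). This test too uses D164A/- libraries, whose Igfbp5 level chose the list. It also uses the untreated 4-day D164A/fl cells as control, which held far less Igfbp5 than the 3-day ones. That call was lost without D164A/fl untreated replicate 1 (-2.81, adjusted p = 0.204) or treated replicate 2 (-3.2, adjusted p = 0.104). It was also lost without D164A/- untreated replicate 1 (-3.49, adjusted p = 0.0711) or treated replicate 2 (-2.93, adjusted p = 0.169), and with a pseudocount of 0.1 (adjusted p = 0.187), edgeR (adjusted p = 0.35) or only the samples compared (adjusted p = 0.132).

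Igfbp2 fell with TGFβ in D164A/- cells, from 67.4 and 79.9 CPM to 22.5 and 4.11 CPM (log2 fold change -2.76 ± 0.47 SE, limma adjusted p = 9.9e-05), while Igfbp5 in the same libraries did not pass. Without the treated replicate 2 the log2 fold change of Igfbp2 was -1.66 (adjusted p = 0.0429), and it was not called by edgeR (adjusted p = 0.186) or with only the samples compared (adjusted p = 0.178). The last of these fits called 0 of 13754 genes for the TGFβ response of D164A/-. The SE of the main fit pools the spread over all 28 conditions, and Igfbp2 was near 0 in the lines other than D164A. It is therefore too small for these libraries, whose treated replicates lay at 4.55 and 2.35 as log2(CPM + 1). The difference of Igfbp2 from the response of fl/fl cells was -2.74 (limma adjusted p = 0.00865, 4.28% of all genes called), but the fl/fl libraries held at most 1 read each, so it restates the response of D164A/-. It was not called without the treated replicate 2 of D164A/- (-1.64, adjusted p = 0.181), with a pseudocount of 0.1 (-2.69, adjusted p = 0.17), with edgeR (-0.18, adjusted p = 1), with only the samples compared (adjusted p = 0.174) or after a GC correction (-2.94, adjusted p = 0.0572).

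Igfbp4, which binds IGFs and mostly inhibits them, fell with TGFβ in dm/fl cells from 8.55 and 9.78 CPM to 2.18 and 0.888 CPM (log2 fold change -2.05, limma adjusted p = 0.0353). The call was lost without each of the 4 libraries (log2 fold changes of -2.43 and -1.67 without treated replicates 1 and 2, and of -2.14 and -1.96 without untreated replicates 1 and 2), without the filter on low genes (adjusted p = 0.0521), with edgeR (adjusted p = 0.0597) and after the GC correction (adjusted p = 0.151). The ΔC lines gave similar values that were not called, -1.55 in ΔC/fl (197.5 and 134.3 CPM to 55.3 and 54.3 CPM, limma adjusted p = 0.169) and -1.64 in ΔC/- (4.08 and 4.19 CPM to 0.849 and 0.474 CPM, limma adjusted p = 0.137). In all 3 lines the groups did not overlap. Igfbp3, the main carrier of IGFs in blood, was not called in any line.

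Among the receptors, Igf2r fell with TGFβ in dm/fl cells from 637.6 and 617.8 CPM to 355.7 and 234.1 CPM (log2 fold change -1.12, limma adjusted p = 0.00386). Without the treated replicate 2 this was -0.82 (adjusted p = 0.156). In fl/fl cells Igf2r went from 640.4 and 584.7 CPM to 382.5 and 281.1 CPM, with an adjusted p of 0.0372 by limma but a log2 fold change of -0.9, short of the limit. In the D164A lines it went the other way without passing (0.52 in D164A/fl and 0.4 in D164A/-, limma adjusted p = 0.399 and 0.744). Its log2 fold change was also above 0 without passing in ΔC/fl (0.32) and dm/- (0.19). In ΔC/- it was -0.61 (limma adjusted p = 0.194), from 421.5 and 449.7 CPM to 260.4 and 311.4 CPM. The difference in response from fl/fl was 1.42 for D164A/fl (limma adjusted p = 0.0268) and 1.3 for D164A/- (limma adjusted p = 0.0466). That of ΔC/fl was not called in the main fit, with values from 0.9 to 1.54 over the alternative and left-out fits. For D164A/fl the call was lost without each library other than the treated fl/fl replicate 1, with values from 1.2 to 1.52. For D164A/- it was lost without each library other than the treated replicate 1 of fl/fl and the treated replicate 2 of D164A/-, with values from 1.02 to 1.38. By edgeR neither was called (adjusted p = 0.0784 and 0.126), and that of D164A/- was also lost with a pseudocount of 0.1, no filter, median-of-ratios scaling or only the samples compared (adjusted p from 0.0528 to 0.09). Igf1r was not called with either cytokine in any line, and its largest TGFβ log2 fold change was -0.52, in fl/fl (limma adjusted p = 0.195).

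A pair of members responded differently to TGFβ in dm/- and dm/fl cells, a comparison that called 7.31% of all genes. Igfbp7 rose more in dm/- by 2.11 ± 0.62 SE on the log2 scale (limma adjusted p = 0.0283), and Igf2r, called in dm/fl, had a log2 fold change of 0.19 in dm/- (difference 1.3, limma adjusted p = 0.0299). Without the treated dm/- replicate 2 the Igfbp7 difference was 1.43 (adjusted p = 0.231), and the call was kept only without the treated dm/- replicate 1 or the untreated dm/fl replicate 2. The Igf2r call was lost without the treated dm/- replicate 1 (0.89), the untreated dm/- replicate 1 (1.17), the treated dm/fl replicate 2 (1) or either untreated dm/fl library (1.28 and 1.33). With only the samples compared neither was called (adjusted p = 0.0566 for Igfbp7 and 0.0975 for Igf2r), nor was Igfbp7 after the GC correction (1.93, adjusted p = 0.113) or Igf2r by edgeR (adjusted p = 0.0629). Over the 9 comparisons of TGFβ responses between lines, 7 of 72 member tests were called, where 3.49% of all tests were. These calls include the Igfbp5 tests on lines whose Igfbp5 level chose the list, and the Igfbp2 test that restates the response of D164A/-. The count is therefore not a result about the members.

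With Wnt3a none of the 56 member tests was called by limma. Of these, 6 had an unadjusted p under 0.05, and edgeR likewise called 0 and had 6. The share of all genes called was 0.378% in fl/fl, 4.15% in D164A/fl, 0.654% in D164A/-, 0.225% in ΔC/fl, 0.0509% in ΔC/-, 0.574% in dm/fl and 0% in dm/-, where 29 genes had an unadjusted p under 0.05 and edgeR also called 0. The member with the lowest adjusted p was Igfbp5 in D164A/fl, at 4233 and 5477 CPM untreated and 2301 and 1163 CPM with Wnt3a (log2 fold change -1.56, limma adjusted p = 0.138). In fl/fl cells the levels of Igfbp5 were 1.83 and 5.25 CPM untreated and 0.123 and 0.226 CPM with Wnt3a (log2 fold change -1.84, limma adjusted p = 0.181). With a pseudocount of 0.1 this last difference was called (-3.58, limma adjusted p = 0.0315). No difference between the Wnt3a responses of lines was called in 72 member tests with limma, of which 7 had an unadjusted p under 0.05. By edgeR 0 were called with 6 under 0.05, and 0.414% of all tests were called by limma.

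**Figure D3:**
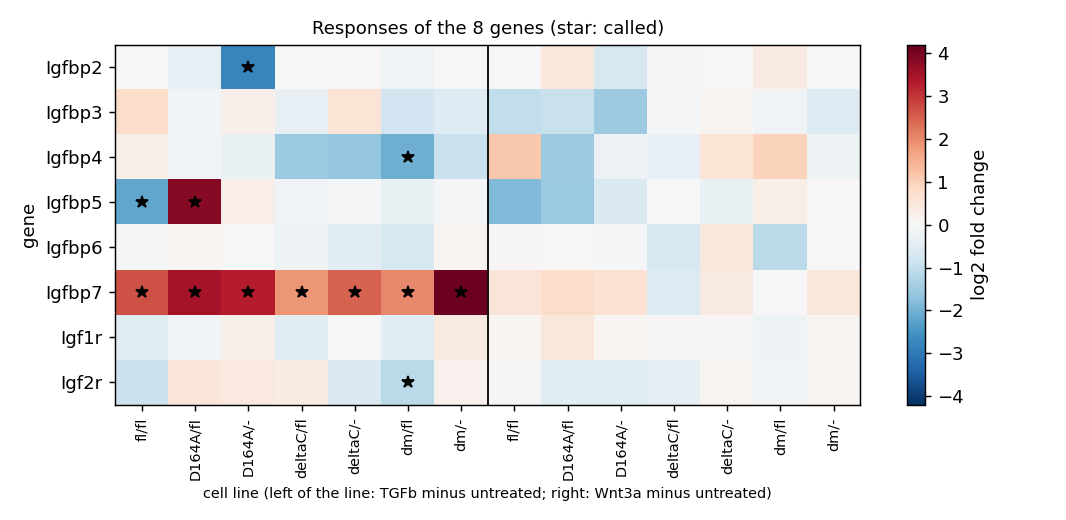
Log2 fold changes of the 8 genes (rows) with TGFβ (left) and Wnt3a (right) in the 7 lines (columns), with stars at the 12 called values. The row of Igfbp7 is called in all 7 lines on the left, and the right side has no star.

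Loss of the floxed allele was examined in untreated cells, as the mean over the 3-day and the 4-day libraries of each line. The share of all genes called was 9.45% between D164A/- and D164A/fl, 12.2% between ΔC/- and ΔC/fl and 18.3% between dm/- and dm/fl. Leaving out the D164A comparison of Igfbp5, 9 of 23 member tests were called, of which 7 were lower in the deleted line. Calls over all genes were also more often lower, with 743 of 1300 in D164A, 950 of 1681 in ΔC and 1489 of 2519 in dm. The binding protein that passed in all 3 comparisons was Igfbp4, which was lower each time.

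In ΔC/fl cells Igfbp4 lay at 44.4 and 201.6 CPM at 3 days and at 197.5 and 134.3 CPM at 4 days. In ΔC/- cells it was 5.22 and 1.11 CPM at 3 days and 4.08 and 4.19 CPM at 4 days, a log2 fold change of -4.86 ± 0.47 SE (limma adjusted p = 7.05e-10). The value was -4.73 within the 3-day cells and -5 within the 4-day cells. In D164A/fl the levels were 7.80, 1.26, 19.8 and 19.1 CPM, and in D164A/- they lay between 0.875 and 1.07 CPM (log2 fold change -2.28, limma adjusted p = 0.000458). Here the difference passed in the 4-day cells (-3.36, limma adjusted p = 0.000243) but not in the 3-day cells (-1.2, limma adjusted p = 0.634). In dm/fl and dm/- the means were 8.54 and 2 CPM (log2 fold change -1.74, limma adjusted p = 0.00403), with -1.83 at 3 days and -1.64 at 4 days (limma adjusted p = 0.0453 and 0.0777). The summed level of 10 fibroblast markers also differed between these lines, with 84.7 to 789 CPM in ΔC/fl against 7.77 to 26.9 CPM in ΔC/-, and 79.3 to 571 CPM in dm/fl against 7.98 to 129 CPM in dm/-. In the D164A lines the ranges were 54.5 to 78.4 CPM in D164A/fl and 50.8 to 146 CPM in D164A/-. The summed level of 6 immune markers was 292 to 533 CPM in dm/fl and 30.6 to 88 CPM in dm/-. The summed level of the 8 basal markers had a lower median in each deleted line, with medians over all libraries of 853 and 324 CPM in D164A/fl and D164A/-, 554 and 35.6 CPM in ΔC/fl and ΔC/-, and 655 and 123 CPM in dm/fl and dm/-. For D164A/fl and D164A/- the medians were 3305 and 457 CPM in the Wnt3a experiment and 428 and 266 CPM in the TGFβ experiment. In the TGFβ experiment the ranges overlapped within the D164A pair and within the dm pair. The part of these markers in the results for Igfbp3 and Igfbp4 was not tested, and 3 of the fibroblast markers (Lum, Thy1 and Fap) were near 0 throughout.

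Igfbp3 was lower after deletion in the D164A and dm lines. Untreated D164A/fl cells held 190.4, 302.2, 93.0 and 126.3 CPM and D164A/- cells 16.4, 63.2, 1.70 and 6.09 CPM, and the lines did not overlap (log2 fold change -3.75 ± 0.43 SE, limma adjusted p = 4.88e-08). The means of dm/fl and dm/- were 68.8 and 6.11 CPM (log2 fold change -3.3, limma adjusted p = 2.06e-07). Both passed within the 3-day cells (-2.85 and -3.18) and within the 4-day cells (-4.64 and -3.43). In the ΔC lines Igfbp3 was low in either line, with means of 4.24 CPM in ΔC/fl and 8.14 CPM in ΔC/- (limma adjusted p = 0.24).

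Igfbp2 was higher in D164A/- than in D164A/fl cells, with means of 54.9 and 11.6 CPM (log2 fold change 3.14 ± 0.33 SE, limma adjusted p = 6e-09), but the libraries of the lines overlapped. The difference was 5.34 within the 4-day cells (limma adjusted p = 1.29e-10) and 0.95 within the 3-day cells (limma adjusted p = 0.492). Igfbp2 passed the filter on low genes only through the D164A lines. These fits pool its spread with conditions near 0 in the other lines, so their SE and adjusted p are too small for the lines compared. Igfbp5, described without a test, was 10176 CPM in D164A/- and 2541 CPM in D164A/fl on average, and here too the 3-day libraries overlapped while the 4-day libraries did not.

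Igfbp7 was lower in ΔC/- than in ΔC/fl cells, with means of 12.7 and 46.9 CPM (log2 fold change -1.69 ± 0.31 SE, limma adjusted p = 7.7e-05). Values within the 3-day and the 4-day cells were -1.74 and -1.65. In the dm lines the log2 fold change was -0.94 (limma adjusted p = 0.0183), below the limit, with 0.04 in the 3-day cells and -1.92 in the 4-day cells. Igfbp6 was called as lower in dm/- (log2 fold change -1.02, limma adjusted p = 0.00123) at means of 0.0888 and 1.48 CPM. Without the dm/fl 3-day replicate 1, the library that stood apart and held 3.86 CPM, this was -0.64. The Igfbp6 call was also lost without dm/fl 4-day replicate 2 (-0.96), dm/- 4-day replicate 2 (-0.99) or dm/- 3-day replicate 1 (-0.95), in the 4-day cells alone (-0.63), after the GC correction (-0.82) and with only the samples compared (limma adjusted p = 0.0821).

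Igf2r was the only receptor called in this comparison. It was higher in dm/- cells, which held 1452 and 1215 CPM at 3 days and 1097 and 1322 CPM at 4 days, than in dm/fl cells with 536 and 479.1 CPM at 3 days and 637.6 and 617.8 CPM at 4 days (log2 fold change 1.16 ± 0.19 SE, limma adjusted p = 1.17e-05). It was 1.39 within the 3-day cells and 0.94 within the 4-day cells, the latter below the limit. The lowest of the 8 dm/- libraries of either experiment (1027 CPM) lay above the highest library of every other line (813.2 CPM). Igf1r was lower in the deleted lines by log2 fold changes of -0.43, -0.38 and -0.45 in D164A, ΔC and dm, none of which reached the limit (limma adjusted p = 0.0447, 0.0644 and 0.0199).

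**Figure D4:**
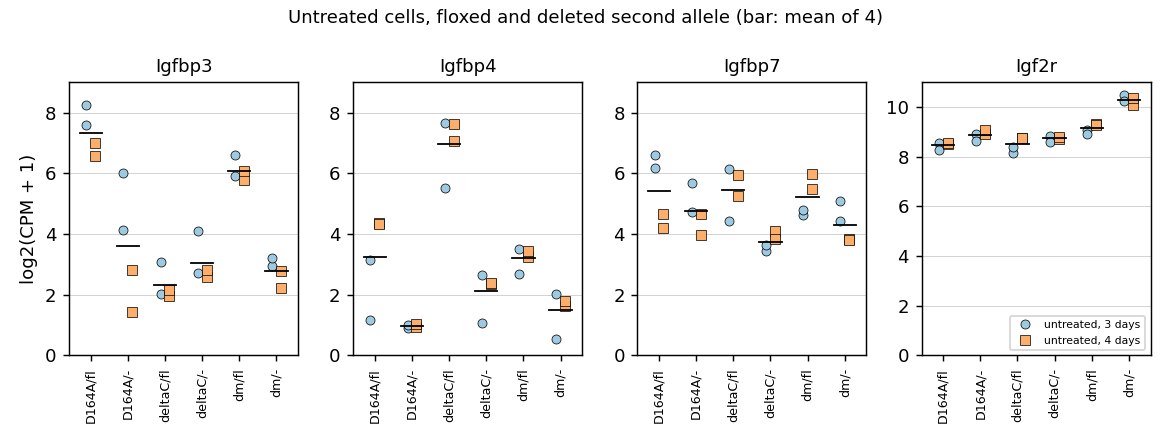
Igfbp3, Igfbp4, Igfbp7 and Igf2r in untreated cells with a floxed or a deleted allele as log2(CPM + 1), by cell line (horizontal axis), with 3-day and 4-day libraries in different colors and a bar at the mean of 4. Igfbp4 is lower in the deleted line of each pair, and Igf2r is highest in dm/- cells, at 1097 to 1452 CPM.

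The other genes of the IGF system were taken from a list of 39 genes, of which 38 were in the table and 34 passed the filter on low values. The ligands were low in most lines. Igf2, the ligand of Igf2r, was found mainly in dm/- cells at 18.5 to 222.5 CPM and in ΔC/- cells at 3.2 to 7.71 CPM. Its untreated mean was 51.3 CPM in dm/- against 0.282 CPM in dm/fl (log2 fold change 5.17 ± 0.26 SE, limma adjusted p = 7.96e-17). In ΔC/- against ΔC/fl the means were 7.09 and 1.44 CPM (2.12, limma adjusted p = 1.36e-07). Igf1 was found mainly in ΔC/fl (up to 18.9 CPM) and dm/fl (up to 20.8 CPM). The untreated ΔC/- libraries held no read of Igf1, against a mean of 5.14 CPM in ΔC/fl, and in dm/- the mean was 0.00939 CPM against 8.17 CPM in dm/fl. Both differences were called (limma adjusted p = 0.0034 and 5.87e-07).

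In the deleted lines 33 of 102 tests of these genes were called, where 13.3% of the tests of all genes were. Between dm/- and dm/fl, 5 of 34 were higher and 12 lower, beside 1030 higher and 1489 lower of 13754 genes in all, with a median log2 fold change of -0.33, and a median over all genes tested of -0.01. Adamts1, a secreted metalloprotease, was lower in all 3 deleted lines (-2.28 in D164A, -1.8 in ΔC and -2.05 in dm). Kazald1, related to the binding proteins, was higher in D164A/- than in D164A/fl (1.79, limma adjusted p = 6.56e-05).

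With TGFβ, 45 of 238 tests of these genes were called, where 6.35% of the tests of all genes were. Ccn2 and Ccn4, matricellular proteins with an IGF binding protein domain, rose in all 7 lines like Igfbp7, with log2 fold changes from 1.68 to 4.05 for Ccn2 and from 3.23 to 7.85 for Ccn4. Ccn4 in dm/- went from a mean of 0.224 to 284.8 CPM. Htra1, a protease that can cleave binding proteins, rose in D164A/- (2.36, limma adjusted p = 0.0003). Pik3r1, a regulatory subunit of PI3-kinase, fell in ΔC/fl, ΔC/- and dm/fl (-2.73, -2.56 and -1.72). Of 20 falls over the 7 lines, 8 were in dm/fl and 5 in ΔC/fl, and those in dm/fl included Ccn5 (-5.72), Stc1 (-2.8) and Igf1 (-2.77). Over all genes, dm/fl and ΔC/fl likewise had the most falls, 946 and 618 of 13754 genes. With Wnt3a, 5 of 238 tests were called, where 0.862% of the tests of all genes were. All 5 were in D164A/fl cells, which also held 571 of the 830 calls over all genes, and they were Ccn2 (2.26), Irs2 (2.22), Kazald1 (-2.1), Htra1 (1.62) and H19 (-1.48).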

How the data were processed

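Poly(A) RNA of the 56 libraries was sequenced as single-end stranded reads by the study. Per its methods and the submitters' notes, reads were mapped with STAR to mm10, and reads starting in exons of RefSeq genes were counted with QuasR. The authors deposited a normalized signal, the counts divided by an effective library size per sample, here called CPM. In all libraries 100% of the values were whole multiples of 1 read (tolerance 0.001 reads), so the counts were recovered. All columns matched a labelled sample.

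The 13754 genes that reached 1 CPM in 2 or more samples were tested in 1 limma 3.58.1 fit (R 4.3.3, lmFit and eBayes with trend) of 28 conditions on log2(CPM + 1), so fold changes of low genes are understated. The fit pools the spread of a gene over all conditions. Igfbp2 and Igfbp5 were near 0 in the ΔC and dm lines, so their SE understates the spread among the D164A libraries. p-values were adjusted by Benjamini-Hochberg over all genes tested. The same steps were tested on simulated data. Alternatives were a pseudocount of 0.1, no filter, median-of-ratios scaling, edgeR 4.0.16 on the counts, only the samples compared, a replicate block, a lowess correction (span 0.3) for GC content (GENCODE vM21), each experiment's untreated cells alone, and leaving out each library. Symbols, positions and promoters came from RefSeq (GRCm38.p6).

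Named were the 8 members in every comparison, the 5 genes most correlated with Igfbp5 and the 2 with each other member, up to 4 called pathway genes per comparison by fold change, and check genes. Igf1, Adamts1 and Pik3r1 were in places named beyond this rule, after their values were seen. The members and lists were chosen with earlier results of these data known.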

Additional observations from a re-analysis of the deposited data

Results flagged for a closer look

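The response to TGFβ differed between lines in 7 member tests, each by the limma test of the difference itself. For Igfbp5 the log2 difference was 5.99 between D164A/fl and fl/fl cells and -3.53 between D164A/- and D164A/fl cells. For Igfbp2 it was -2.74 between D164A/- and fl/fl cells. For Igf2r it was 1.42 between D164A/fl and fl/fl, 1.3 between D164A/- and fl/fl, and 1.3 between dm/- and dm/fl. For Igfbp7 it was 2.11 between dm/- and dm/fl. Of these, edgeR called 2. The Igfbp5 difference between D164A/fl and fl/fl was the one that kept its call without each of its 8 libraries in turn, but not with only the samples compared (limma adjusted p = 0.0583). The tests against fl/fl share the fl/fl libraries. Both Igfbp5 tests use a line whose Igfbp5 level chose the list, so they are not independent of that choice. Both also use the untreated 4-day D164A/fl cells, which held far less Igfbp5 than the untreated 3-day cells of that line.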

How the results depend on the processing

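The calls of members depended on how the spread was estimated. With TGFβ, 12 member tests were called, and 7 with only the samples compared. There each test has few degrees of freedom and uses the spread of those libraries alone. Leaving out each library gave 10 to 13. With Wnt3a there was 0, against 1 with a pseudocount of 0.1 and 3 with the replicate block (Igfbp5 in fl/fl and D164A/fl and Igfbp4 in D164A/fl, limma adjusted p = 0.0227, 0.0282 and 0.0197), and 0 to 2 without a library. For the loss of the floxed allele 9 were called, and 8 to 10 without a library. For differences in response there were 7, against 4 with a pseudocount of 0.1, 2 with edgeR, 2 with only the samples compared and 16 with the replicate block, and 4 to 10 without a library. In each left-out fit, a condition with 1 sample was taken to vary like the others. Among single results, Igfbp7 between dm/- and dm/fl turned to 0.04 in the 3-day cells, and the Wnt3a difference of Igfbp6 between dm/fl and fl/fl turned to 0.24 after the GC correction. The cause was not tested. Over all genes, edgeR on the recovered reads called 349 to 1428 genes per line with TGFβ (limma 465 to 1420), 0 to 394 with Wnt3a (limma 0 to 571) and 1809 to 3317 for the loss of the floxed allele (limma 1300 to 2519). With only the samples compared limma called 0 to 1550 genes with TGFβ and 0 in each line with Wnt3a, and with the replicate block 857 genes with Wnt3a in fl/fl, against 52.

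The replicate numbers are not known to pair samples. Same-numbered replicates deviated together in most comparisons, with correlations up to 0.94, but not in the TGFβ response of ΔC/- (-0.25), the Wnt3a response of dm/fl (-0.1) or between the dm lines (-0.16 and -0.6). With the replicate block 14 member tests were called for TGFβ and 9 for the floxed allele, and crossing the pairing in these lines, chosen after seeing the data, also gave 14 and 9. Depth limits Igfbp6, and Igfbp2 outside the D164A lines, to near the detection level.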

Other observations

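Genes near Igfbp2 and Igfbp5 on chromosome 1 were not alike in level. Smarcal1 had medians from 21.8 to 38.3 CPM over the 7 lines, and Rpl37a, a ribosomal protein gene, had medians from 24.7 to 36.9 CPM. Neither was called between a deleted line and its floxed partner by limma, with adjusted p from 0.549 to 0.842 for Smarcal1 and from 0.271 to 0.64 for Rpl37a over the 3 comparisons. Tns1, a focal adhesion gene, ranged from 0.27 to 250 CPM over all libraries, with medians of 1.68 CPM in D164A/fl and 2.07 CPM in D164A/- and its highest median, 30.7 CPM, in dm/fl. Tns1 was lower in ΔC/- and dm/- than in their floxed partners (log2 fold changes -1.51 and -1.65, limma adjusted p = 0.0277 and 0.0117). Ankar and Tnp1 were under 3 reads in every library. These genes were named after the values of Igfbp5 were seen.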
